A study of Arabidopsis thaliana with 18 samples.

Results

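The genes described here encode the enzymes of flavonoid synthesis, CHS, CHI, F3H, F3'H, FLS1, DFR and LDOX, and the MYB transcription factors that switch them on, MYB12, MYB111 and MYB75. They were chosen by their identifiers, as 10 of the 33602 genes in the count table. No measured value was a criterion, but earlier results of these data were known when they were chosen. RNA-seq was made from material labelled as seedlings of Arabidopsis thaliana, aged 14 days on MS medium at 22 °C under days of 16 h light and nights of 8 h. The 6 genotypes, all in the ecotype Col-0, had 3 libraries each. They were the wild type Col-0; hta9hta11, with the alleles hta9-1 and hta11-2 of a pair of H2A.Z genes; arp6, with the allele arp6-1 of a subunit of the complex that puts the histone variant H2A.Z into nucleosomes; atchz1ab, mutated in the AtChz1 genes, which are named after a yeast H2A.Z chaperone and whose alleles the labels do not give; and the combined lines atchz1ab hta9hta11 and atchz1ab arp6. Other H2A.Z genes remain intact in hta9hta11. Every group shared the ecotype, age, medium and light, and the design asks how transcripts respond to the loss of H2A.Z, of its loading complex and of the AtChz1 proteins, alone and together. Such material mixes cell types, so that fewer cells of a type and less RNA per cell cannot be told apart.

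Flavonoids are plant phenolics that act as sunscreens, pigments and signals. CHS joins a phenylpropanoid unit to malonyl units to make a chalcone, CHI closes its ring, and F3H and F3'H add hydroxyl groups. From there FLS1 leads to flavonols, the colourless ultraviolet screens of leaves, while DFR and LDOX lead to the red and purple anthocyanins and, in the seed coat, to tannins. MYB12 and MYB111 with their relative MYB11 are known to activate the early genes CHS, CHI, F3H and FLS1. MYB75, also called PAP1, acts with bHLH proteins and the WD40 protein TTG1 on the late genes DFR and LDOX.

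The libraries held 7163359 to 10744318 counts. Changes were tested with edgeR's quasi-likelihood test over the 18906 genes that passed its filter on low counts, and a gene was called where its p, adjusted over those genes by the Benjamini-Hochberg method, was under 0.05. Levels are CPM, the counts scaled to a common library size after TMM normalisation, and log2 fold changes are given ± SE. Of the 10 genes, 9 passed the filter, while MYB12 did not. HTA11 stood at 19.5 ± 1.64 CPM in Col-0 and at 0.832 ± 0.513 and 0.811 ± 0.236 in the lines with hta11-2 (SD, n = 3), and HTA9 at 93.3 ± 5.85 CPM in Col-0 and at 42.7 ± 1.68 and 39.2 ± 2.73 in the lines with hta9-1, where its transcript thus remained in part. ARP6 had 714 counts over the Col-0 libraries, 0 in arp6 and 1 in atchz1ab arp6, while the AtChz1 transcripts were not analysed here. The labels name seedlings as the tissue, and 5 leaf markers summed to 21544 CPM or more in each library, while 5 root markers summed to at most 3.19 CPM. Of the root markers, COBL9 had 10 counts in all libraries together, EXPA7 10, RHD6 9 and CASP1 33, so that these defining root genes stood near 0. No label tells whether the replicates are separate cultures of seedlings, and the p-values therefore reflect the spread among these libraries alone, which may be technical.

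Per kilobase of exon, CHS was the most abundant of the 10 transcripts in Col-0, with 19.4 ± 3.22 CPM per kb (SD, n = 3). CHI followed with 10.5 ± 0.457, FLS1 with 7.81 ± 0.549 and F3H with 5.58 ± 0.717 CPM per kb, and the libraries of neighbours in this order did not overlap. LDOX at 2.53, MYB111 at 2.13, DFR at 1.99, F3'H at 1.70 and MYB75 at 1.61 CPM per kb overlapped from each to the next, and MYB12 was lowest at 0.316. In arp6 the order of the first ones was CHS with 24.4 ± 1.56 CPM per kb, CHI with 18.04 ± 1.83, F3H with 10.9 ± 1.58 and FLS1 with 9.94 ± 1.08, of which F3H and FLS1 overlapped. At the low end of that order in arp6 stood DFR with 1.12 ± 0.484, MYB12 with 0.584 ± 0.148 and MYB75 with 0.512 ± 0.333 CPM per kb, which overlapped from each to the next.

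**Figure D1:**
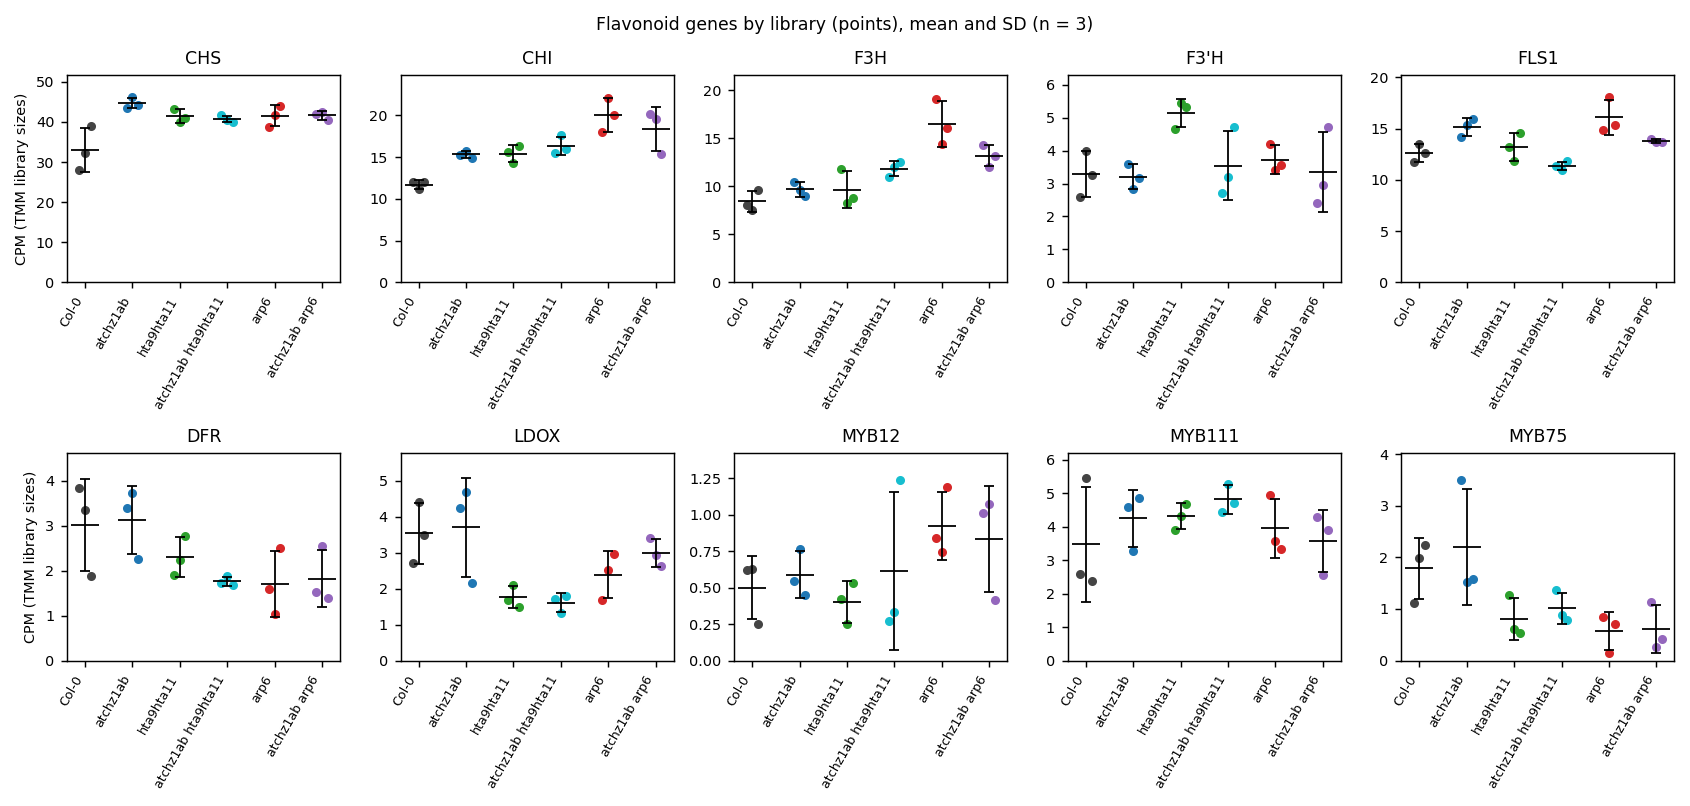
CPM of the 10 genes in each library (points, coloured by genotype), with the mean and SD of the 3 libraries of a genotype (black). CHI and F3H are highest in arp6, at 20.1 and 16.5 CPM on average, while LDOX is lowest in the lines carrying hta9hta11 and MYB75 lowest in the lines carrying arp6.

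The upstream regions of 4 of the genes are shown because CHS, CHI and F3H rose together in several lines while DFR was lower in arp6. Each line holds the 250 bases before the annotated gene start, 5′ to 3′ on the gene's strand, read from the genome sequence TAIR10.1 of RefSeq. They lie at chr5:4488226-4488475 (plus strand) for CHS, chr3:20431598-20431847 (minus strand) for CHI, chr3:19024942-19025191 (plus strand) for F3H and chr5:17166033-17166282 (minus strand) for DFR. Capitals mark the G-box CACGTG, bound by bZIP and bHLH factors such as HY5, and its core ACGT, which the G-box contains.
CHS: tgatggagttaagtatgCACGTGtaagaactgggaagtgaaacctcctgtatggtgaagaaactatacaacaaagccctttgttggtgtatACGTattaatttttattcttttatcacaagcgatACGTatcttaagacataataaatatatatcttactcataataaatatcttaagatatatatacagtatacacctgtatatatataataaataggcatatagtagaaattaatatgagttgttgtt
CHI: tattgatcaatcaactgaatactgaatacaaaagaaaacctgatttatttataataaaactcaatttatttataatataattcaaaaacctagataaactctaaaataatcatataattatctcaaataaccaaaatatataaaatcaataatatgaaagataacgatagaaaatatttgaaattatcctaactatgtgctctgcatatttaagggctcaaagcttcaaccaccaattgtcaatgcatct
F3H: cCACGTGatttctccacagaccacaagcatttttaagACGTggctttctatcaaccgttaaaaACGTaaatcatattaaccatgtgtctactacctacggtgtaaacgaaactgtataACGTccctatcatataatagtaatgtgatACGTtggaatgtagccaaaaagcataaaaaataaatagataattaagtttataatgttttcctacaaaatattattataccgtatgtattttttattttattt
DFR: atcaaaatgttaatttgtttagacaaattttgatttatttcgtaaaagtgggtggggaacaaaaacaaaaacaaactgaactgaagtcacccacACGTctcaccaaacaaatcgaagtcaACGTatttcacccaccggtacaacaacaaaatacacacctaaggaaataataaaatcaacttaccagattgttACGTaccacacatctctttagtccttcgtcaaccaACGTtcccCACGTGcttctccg
The G-box stood in the windows of CHS, F3H, DFR and MYB12, that is 4 of the 10, and the ACGT core in these and in MYB111. Of 27443 windows of this length in the genome, searched on both strands, 6.486% held the G-box and 44.08% the core. Of the MYB recognition elements, ACCTACC stood in 1.162% of all windows, the variant ACCTAAC in 2.463% and the variant ACCAACC in 2.689%. At least 1 of them was in 6.118% of all windows and in 0 of the 10. CHI held neither the G-box nor the core in its window. The part of these motifs in the changes of the genes was not tested. A match describes these letters in this window and is not a measured binding site. An absence covers these exact letters in this window alone, not other variants, bases farther upstream or the gene itself.

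CHS (AT5G13930, chromosome 5, 4488476 to 4490264, plus strand), the entry enzyme of the pathway, was higher than in Col-0 in each of the 5 mutant lines, by 1.23 to 1.35 times. It stood at 28.0, 32.3 and 38.9 CPM in the Col-0 libraries and 43.6, 46.2 and 44.3 in atchz1ab. It stood at 43.3, 40.1 and 41.0 CPM in hta9hta11, 41.6, 40.5 and 40.0 in atchz1ab hta9hta11, 38.8, 41.8 and 44.1 in arp6 and 42.1, 42.6 and 40.4 in atchz1ab arp6. Col-0 was the group with the widest spread, and the libraries of 4 of the mutant lines lay above all of Col-0, while the lowest arp6 library lay just under the highest of Col-0. The log2 fold change was 0.44 ± 0.08 in atchz1ab (edgeR adjusted p = 4.97e-06), 0.33 ± 0.08 in hta9hta11 (0.00127) and 0.30 ± 0.08 in atchz1ab hta9hta11 (0.00333). In arp6 and atchz1ab arp6 it was 0.33 ± 0.08 and 0.34 ± 0.08 (edgeR adjusted p = 0.000293 and 0.000287). Without Col-0 replicate 1, its lowest library, the calls in hta9hta11 and atchz1ab hta9hta11 were lost (log2 fold changes 0.23 and 0.20, edgeR adjusted p = 0.0748 and 0.123), and those in atchz1ab, arp6 and atchz1ab arp6 were kept. Replacing the estimated spread by an assumed coefficient of variation of 0.1 also ended the calls in hta9hta11 and atchz1ab hta9hta11 (edgeR adjusted p = 0.229 and 0.290).

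CHI (AT3G55120, chromosome 3, 20430059 to 20431597, minus strand), which isomerises the chalcone to a flavanone, also rose in each of the 5 lines, and most in those carrying arp6. The Col-0 libraries stood close together at 12.01, 11.1 and 12 CPM, against 15.3, 15.8 and 14.9 in atchz1ab, 15.6, 14.4 and 16.3 in hta9hta11 and 15.5, 17.6 and 16.0 in atchz1ab hta9hta11. They reached 18.02, 22.1 and 20.1 CPM in arp6 and 20.2, 19.5 and 15.4 in atchz1ab arp6. All 15 mutant libraries lay above the 3 of Col-0. CHI was 1.70 times as high in arp6 (log2 fold change 0.77 ± 0.12, edgeR adjusted p = 1.58e-08) and 1.58 times in atchz1ab arp6 (0.66 ± 0.12, edgeR adjusted p = 2.31e-06). The changes were smaller in atchz1ab hta9hta11 (0.48 ± 0.12, edgeR adjusted p = 0.00197), hta9hta11 (0.40 ± 0.12, 0.0161) and atchz1ab (0.39 ± 0.12, 0.0195). Compared directly, arp6 was higher than hta9hta11 by 0.36 ± 0.11 (edgeR adjusted p = 0.00475). The calls in arp6 and atchz1ab arp6 held in each of 14 alternatives. The call in atchz1ab was lost without Col-0 replicate 2 (0.35, edgeR adjusted p = 0.103) or atchz1ab replicate 2 (0.37, 0.0704) and with DESeq2 (0.39, 0.0542), and that in hta9hta11 without Col-0 replicate 2 (0.37, edgeR adjusted p = 0.0915) or hta9hta11 replicate 1 (0.40, 0.0510) or 3 (0.36, 0.0888). The assumed coefficient of variation of 0.1 ended the calls of CHI in atchz1ab, hta9hta11 and atchz1ab hta9hta11 and between arp6 and hta9hta11 (edgeR adjusted p = 0.232, 0.203, 0.0562 and 0.0529).

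F3H (AT3G51240, chromosome 3, 19025192 to 19026872, plus strand), which hydroxylates flavanones to dihydroflavonols, rose in the lines carrying arp6 and in atchz1ab hta9hta11. It stood at 8.05, 7.56 and 9.62 CPM in Col-0, 10.5, 9.63 and 8.94 in atchz1ab and 11.8, 8.29 and 8.73 in hta9hta11. It stood at 10.98, 12 and 12.5 CPM in atchz1ab hta9hta11, 19.1, 14.4 and 16.0 in arp6 and 14.3, 12.05 and 13.2 in atchz1ab arp6. The last 3 groups lay above all of Col-0, while atchz1ab and hta9hta11 overlapped it. F3H rose 1.99-fold in arp6 (log2 fold change 0.99 ± 0.14, edgeR adjusted p = 7.32e-10), 1.57-fold in atchz1ab arp6 (0.66 ± 0.15, 9.68e-05) and 1.41-fold in atchz1ab hta9hta11 (0.49 ± 0.14, 0.0119). In atchz1ab and hta9hta11 it was not called, and the 95% interval of the change was -0.12 to 0.54 in both. It was higher in arp6 than in hta9hta11 by 0.78 ± 0.13 (edgeR adjusted p = 3.51e-07). The calls against Col-0 in arp6 and atchz1ab arp6 held in each of 14 alternatives. The call in atchz1ab hta9hta11 was lost without Col-0 replicate 1 (0.47, edgeR adjusted p = 0.0502) or 2 (0.41, 0.105), without atchz1ab hta9hta11 replicate 3 (0.45, 0.0568) and with the assumed coefficient of variation of 0.1 (0.49, 0.0849). A non-coding RNA gene on the other strand, AT3G51238, covers 1415 of the 1508 exon bases of F3H. It holds 5 counts in all libraries together against 1790 for F3H. Counted without strand, reads on the shared bases would go to both genes or to neither. The unlike counts are thus those of a count by strand, given these gene models, though the sources used here do not state that setting.

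F3'H (AT5G07990, chromosome 5, 2560328 to 2563137, plus strand), which adds the hydroxyl that separates quercetin from kaempferol, was not called in any comparison. It stood at 2.60, 3.99 and 3.25 CPM in Col-0, 3.60, 2.85 and 3.17 in atchz1ab and 4.65, 5.44 and 5.32 in hta9hta11. It stood at 2.72, 3.19 and 4.72 CPM in atchz1ab hta9hta11, 4.22, 3.41 and 3.56 in arp6 and 2.40, 2.95 and 4.72 in atchz1ab arp6. The 3 hta9hta11 libraries lay above those of Col-0, with a log2 difference of 0.63 ± 0.24 that missed the threshold (edgeR adjusted p = 0.0748, 95% interval 0.11 to 1.15). In the other 4 lines the groups overlapped Col-0, with differences from -0.05 to 0.18. With library totals in place of TMM it was called lower in arp6 than in hta9hta11 (-0.55, edgeR adjusted p = 0.0449), against -0.45 ± 0.24 with TMM (0.118).

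FLS1 (AT5G08640, chromosome 5, 2803833 to 2805606, plus strand), the main flavonol synthase, rose in arp6. It stood at 11.8, 13.5 and 12.6 CPM in Col-0, 14.9, 18.1 and 15.3 in arp6 and 14.0, 13.7 and 13.7 in atchz1ab arp6. The other lines had 14.2, 15.3 and 16.0 CPM in atchz1ab, 13.2, 11.9 and 14.6 in hta9hta11 and 11.3, 11.01 and 11.8 in atchz1ab hta9hta11. The libraries of arp6, atchz1ab arp6 and atchz1ab all lay above Col-0, but the change was called in arp6 and not in the others, at 1.26 times (0.33 ± 0.12, edgeR adjusted p = 0.0192). It was 0.26 ± 0.12 in atchz1ab (edgeR adjusted p = 0.186, 95% interval -0.01 to 0.52) and 0.12 ± 0.13 in atchz1ab arp6 (0.456, -0.16 to 0.40). The arp6 call was lost without Col-0 replicate 1 (0.28, edgeR adjusted p = 0.0816) or arp6 replicate 2 (0.25, 0.123), with library totals in place of TMM (0.21, 0.140) and with the assumed coefficient of variation of 0.1 (0.34, 0.0885).

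DFR (AT5G42800, chromosome 5, 17164093 to 17166032, minus strand), the first enzyme on the anthocyanin branch, was lower in arp6. It stood at 3.84, 3.36 and 1.87 CPM in Col-0, 3.39, 3.72 and 2.26 in atchz1ab and 1.90, 2.23 and 2.77 in hta9hta11. It stood at 1.72, 1.87 and 1.69 CPM in atchz1ab hta9hta11, 1.58, 1.04 and 2.49 in arp6 and 1.52, 2.54 and 1.39 in atchz1ab arp6. The Col-0 libraries themselves spread from 1.87 to 3.84 CPM, and those of arp6 overlapped them. The fall in arp6 was 0.574 times the Col-0 level (log2 fold change -0.80 ± 0.33, edgeR adjusted p = 0.0325). It was lost with DESeq2 (-0.80, adjusted p = 0.0662), without Col-0 replicate 1 (-0.61, edgeR adjusted p = 0.170) or 2 (-0.71, 0.109) and without arp6 replicate 1 (-0.73, 0.106) or 2 (-0.59, 0.160). The differences of -0.78 ± 0.31 in atchz1ab hta9hta11, whose libraries all lay under those of Col-0, and of -0.74 ± 0.33 in atchz1ab arp6 missed the threshold (edgeR adjusted p = 0.0930 and 0.0564). Without Col-0 replicate 3, its lowest library, both were called (-1.02 and -0.98, edgeR adjusted p = 0.0330 and 0.0164), and without atchz1ab arp6 replicate 2 the latter was (-1.06, 0.0219).

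LDOX (AT4G22880, chromosome 4, 12004726 to 12006209, minus strand), which makes the coloured anthocyanidins, fell in both lines that carry hta9hta11. It stood at 2.72, 4.41 and 3.50 CPM in Col-0, 1.69, 2.10 and 1.49 in hta9hta11 and 1.72, 1.32 and 1.80 in atchz1ab hta9hta11. It stood at 4.26, 4.71 and 2.15 CPM in atchz1ab, 1.69, 2.52 and 2.97 in arp6 and 3.41, 2.95 and 2.64 in atchz1ab arp6. The 6 libraries with hta9hta11 lay under the 3 of Col-0, while the other lines overlapped Col-0. LDOX reached 0.491 times the Col-0 level in hta9hta11 (log2 fold change -1.03 ± 0.30, edgeR adjusted p = 0.0126) and 0.455 times in atchz1ab hta9hta11 (-1.14 ± 0.30, 0.00445). In arp6 the difference of -0.60 ± 0.29 was not called (edgeR adjusted p = 0.0796), though it was without Col-0 replicate 1 (-0.75, 0.0420) or arp6 replicate 3 (-0.80, 0.0466) and with library totals (-0.71, 0.0310). LDOX in arp6 and hta9hta11 was not separated (0.43 ± 0.33, edgeR adjusted p = 0.299, 95% interval -0.29 to 1.15). The call in hta9hta11 was lost without Col-0 replicate 2 (-0.83, edgeR adjusted p = 0.142) or hta9hta11 replicate 1 (-1.001, 0.0509) or 3 (-0.92, 0.0796), and that in atchz1ab hta9hta11 without Col-0 replicate 2 (-0.94, 0.0792).

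MYB75 (AT1G56650, chromosome 1, 21233555 to 21235292, minus strand), the activator of the anthocyanin branch, was lower in both lines that carry arp6. Its counts were 9, 19 and 18 in the Col-0 libraries, 32, 14 and 14 in atchz1ab and 12, 5 and 5 in hta9hta11. They were 15, 8 and 7 in atchz1ab hta9hta11, 8, 1 and 6 in arp6 and 9, 2 and 3 in atchz1ab arp6, so that each value rests on few reads. The 3 arp6 libraries, at 0.843, 0.148 and 0.713 CPM, lay under those of Col-0 at 1.11, 1.99 and 2.25 CPM, while the highest atchz1ab arp6 library, at 1.14, overlapped them. MYB75 fell to 0.342 times the Col-0 level in arp6 (log2 fold change -1.55 ± 0.49, edgeR adjusted p = 0.00545) and to 0.350 times in atchz1ab arp6 (-1.51 ± 0.50, 0.00851). The call in arp6 was lost without arp6 replicate 2 (-1.18, edgeR adjusted p = 0.0504) and that in atchz1ab arp6 without atchz1ab arp6 replicate 2 (-1.17, 0.0737). In hta9hta11 the difference was -1.12 ± 0.45 and missed the threshold (edgeR adjusted p = 0.0963), and hta9hta11 and arp6 were not separated (-0.42 ± 0.57, 0.583, 95% interval -1.66 to 0.82). MYB75 has close relatives, of which MYB90 had 32 counts in all libraries together, MYB113 16 and MYB114 3. The sources used here do not state how reads matching several of them were counted.

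MYB111 (AT5G49330, chromosome 5, 19998823 to 20001572, minus strand), an activator of flavonol synthesis, was not called in any comparison. It stood at 2.60, 5.46 and 2.37 CPM in Col-0, 4.59, 3.28 and 4.86 in atchz1ab and 3.91, 4.33 and 4.69 in hta9hta11. It stood at 4.45, 5.28 and 4.72 CPM in atchz1ab hta9hta11, 4.95, 3.56 and 3.33 in arp6 and 4.30, 2.54 and 3.89 in atchz1ab arp6. Col-0 replicate 2 was more than 2 times the other Col-0 libraries, so that all 5 lines overlapped Col-0. Without that library MYB111 was called higher in atchz1ab hta9hta11 (log2 fold change 0.94, edgeR adjusted p = 0.0187), against 0.43 ± 0.24 with it (edgeR adjusted p = 0.277). MYB12 (AT2G47460, chromosome 2, 19476326 to 19479597, plus strand) had 5, 6 and 2 counts in Col-0, 5, 7 and 4 in atchz1ab, 4, 2 and 5 in hta9hta11, 3, 3 and 11 in atchz1ab hta9hta11, 8, 5 and 10 in arp6 and 8, 8 and 3 in atchz1ab arp6. With 99 counts in all libraries together, it was under the filter, and with no filter it was not called in any of the 10 comparisons, with edgeR adjusted p-values from 0.160 upward. Its arp6 libraries, at 0.843, 0.741 and 1.19 CPM, lay above those of Col-0 at 0.619, 0.630 and 0.250, with a log2 difference of 0.86 ± 0.62 without the filter (edgeR adjusted p = 0.297).

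**Figure D2:**
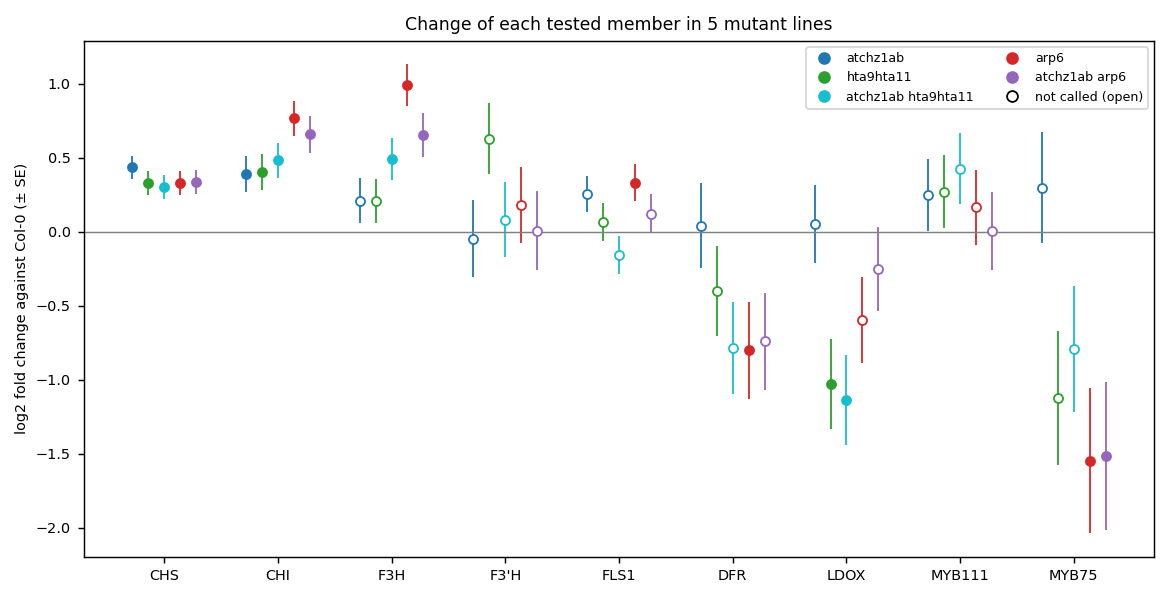
Log2 fold change against Col-0 (± SE) of the 9 tested genes in each mutant line, with filled points for calls at an adjusted p under 0.05. CHS, CHI and F3H lie above 0 in the 5 lines, while DFR, LDOX and MYB75 lie below 0 in the 4 lines with hta9hta11 or arp6, where 5 of these 12 points are called.

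Counted by line, the calls were set beside the share of all tested genes called in that direction. In atchz1ab 2 of the 9 tested genes rose and 0 fell, where 6.15% of all genes rose and 5.55% fell. Of the 0 that fell there, 0 did with DESeq2 and 0 at an unadjusted p under 0.05. In hta9hta11 2 rose, CHS and CHI, and 1 fell, LDOX, against 5.98% higher and 5.26% lower over all genes, and in atchz1ab hta9hta11 3 rose and 1 fell, against 6.19% and 5.32%. The arp6 lines changed far more of the transcriptome: 24.2% of all genes rose and 25.5% fell in arp6, where 4 of the 9 (CHS, CHI, F3H and FLS1) rose and 2 (DFR and MYB75) fell. The 2 falls are near the share of all genes. In atchz1ab arp6 3 rose and 1 fell, against 22.7% and 23.2% of all genes, so that the 1 fall is under the share of all genes. The median log2 fold change of the 9 was 0.25 in atchz1ab, 0.21 in hta9hta11, 0.18 in arp6, 0.08 in atchz1ab hta9hta11 and 0.01 in atchz1ab arp6, beside medians of all genes no farther from 0 than -0.02. These comparisons share the Col-0 libraries and are not independent of each other. Between arp6 and hta9hta11, which share no library, 2 of the 9 were higher in arp6 (CHI and F3H) and 0 lower, where 22.1% of all genes were higher and 22.6% lower. The 2 higher genes are thus near the share of all genes. Of the 0 lower in arp6 by edgeR, 0 were lower with DESeq2 and 0 at an unadjusted p under 0.05.

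Adding the atchz1ab mutations to hta9hta11 or to arp6 left the 9 genes without a call. In atchz1ab hta9hta11 against hta9hta11 edgeR called 0 of the 9, DESeq2 0, and 2 (F3H and F3'H) reached an unadjusted p under 0.05, where 1.75% of all genes were called. In atchz1ab arp6 against arp6 edgeR called 0 of the 9, DESeq2 0, and 1 (F3H) reached an unadjusted p under 0.05, where 14.6% of all genes were called. There the 3 libraries of atchz1ab arp6 lay under the 3 of arp6 for F3H, with a difference of -0.34 ± 0.13 (edgeR adjusted p = 0.0720, 95% interval -0.62 to -0.05), which was called without arp6 replicate 2 (-0.42, edgeR adjusted p = 0.0356). For CHS the differences were -0.03 and 0.01, with 95% intervals of -0.19 to 0.14 and -0.16 to 0.18.

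The response of CHS to atchz1ab depended on the background. CHS rose by 0.44 on the log2 scale when atchz1ab was added to Col-0 and differed by -0.03 and 0.01 when it was added to hta9hta11 and to arp6. The difference of these changes was -0.46 ± 0.11 for hta9hta11 (edgeR adjusted p = 0.00130) and -0.43 ± 0.11 for arp6 (0.00274). Both contain the same 6 libraries of Col-0 and atchz1ab and are not separate observations of the rise in atchz1ab. In levels, CHS went from 33.1 ± 5.48 to 44.7 ± 1.34 CPM in the Col-0 background and stayed between 40.7 and 41.7 CPM, as group means, in the others. CHI behaved likewise with arp6, at -0.50 ± 0.17 (edgeR adjusted p = 0.0271), a call lost without Col-0 replicate 2 (-0.46, edgeR adjusted p = 0.0779), atchz1ab replicate 2 (-0.48, 0.0589), arp6 replicate 2 (-0.44, 0.0874) or atchz1ab arp6 replicate 3 (-0.39, 0.130), with library totals (-0.45, 0.0542) and with DESeq2 (-0.51, adjusted p = 0.0663). Over all genes, 7.15% had a called interaction with hta9hta11, against 1 of the 9, and 13.7% with arp6, against 2 of the 9. The interactions of F3H and FLS1 with arp6, at -0.55 ± 0.20 and -0.46 ± 0.17, missed the threshold (edgeR adjusted p = 0.0520 and 0.0607). That of F3H was called with RLE size factors (-0.55, edgeR adjusted p = 0.0492) and without Col-0 replicate 3 (-0.65, 0.0297), atchz1ab replicate 3 (-0.60, 0.0458), arp6 replicate 2 (-0.63, 0.0283) or atchz1ab arp6 replicate 1 (-0.61, 0.0424), and that of FLS1 without arp6 replicate 1 (-0.52, 0.0481). The assumed coefficient of variation of 0.1 ended the 3 called interactions (edgeR adjusted p = 0.375 and 0.290 for CHS and 0.278 for CHI).

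**Figure D3:**
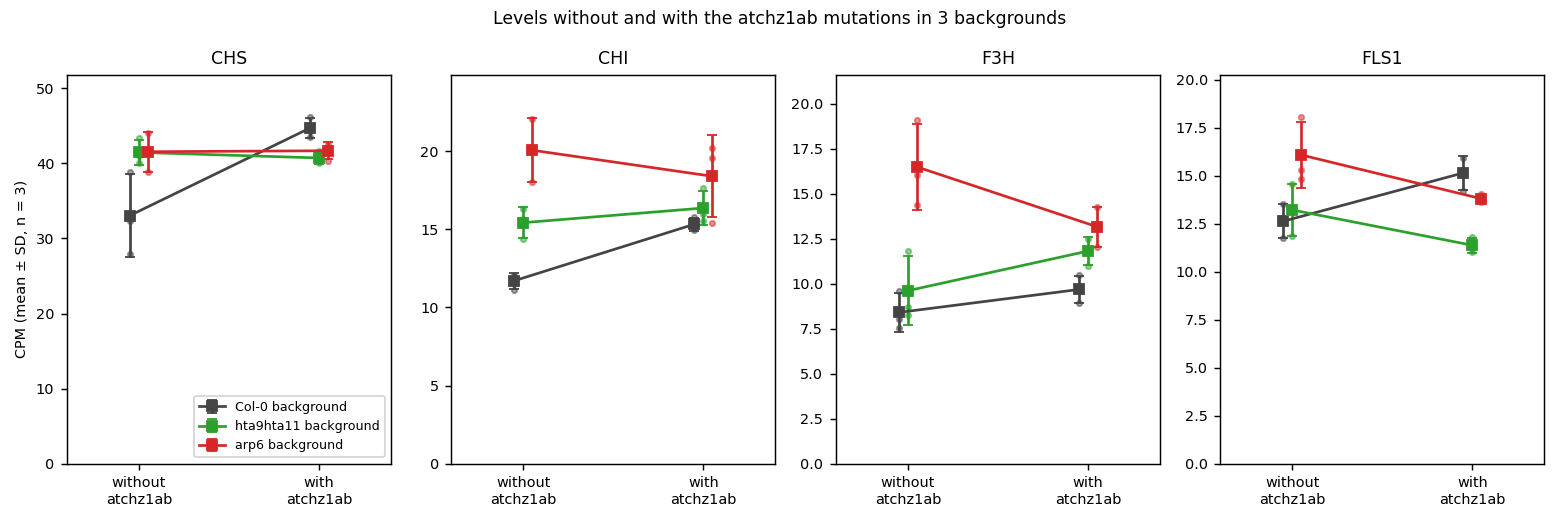
CPM of CHS, CHI, F3H and FLS1 without and with the atchz1ab mutations in the Col-0, hta9hta11 and arp6 backgrounds (squares and bars, mean ± SD, n = 3; small points, libraries). The CHS line climbs from 33.1 to 44.7 CPM in Col-0 and stays between 40.7 and 41.7 CPM in hta9hta11 and arp6.

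The share of the late steps was lower in the lines with hta9hta11 or arp6 than in Col-0, as a sum over genes of which several were not called singly: DFR was called in arp6 and LDOX in the lines with hta9hta11, and neither in atchz1ab arp6. DFR and LDOX together took 12.02%, 13.2% and 8.16% of the counts on CHS, CHI, F3H, DFR and LDOX in the Col-0 libraries and 9.93%, 10.5% and 6.07% in atchz1ab. They took 4.83%, 6.46% and 6.06% in hta9hta11, 4.82%, 4.35% and 4.84% in atchz1ab hta9hta11, 4.13%, 4.35% and 6.38% in arp6 and 6.05%, 6.89% and 5.51% in atchz1ab arp6. All 12 libraries with hta9hta11 or arp6 lay under the 3 of Col-0, while atchz1ab overlapped Col-0. The exact Clopper-Pearson 95% interval of the lowest Col-0 library, 5.97% to 10.8%, overlapped those of many mutant libraries, and the intervals cover counting error only, since PCR copies of a molecule cannot be told from separate molecules. The summed early genes stood at 53.2 ± 6.51 CPM in Col-0 and 78.1 ± 2.15 in arp6, and the summed late ones at 6.57 ± 1.20 and 4.10 ± 1.19 (SD, n = 3). The early genes are in the denominator, so that the share also falls where they alone rise. In CPM the late sum of Col-0 replicate 3, at 5.37, lay under arp6 replicate 3 (5.46) and atchz1ab arp6 replicate 2 (5.49). The late sums of both arp6 lines thus overlapped Col-0. Those of the lines with hta9hta11 reached at most 4.33 CPM, under all of Col-0. No test was run on the share, and F3'H and FLS1 are not in the sum.

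**Figure D4:**
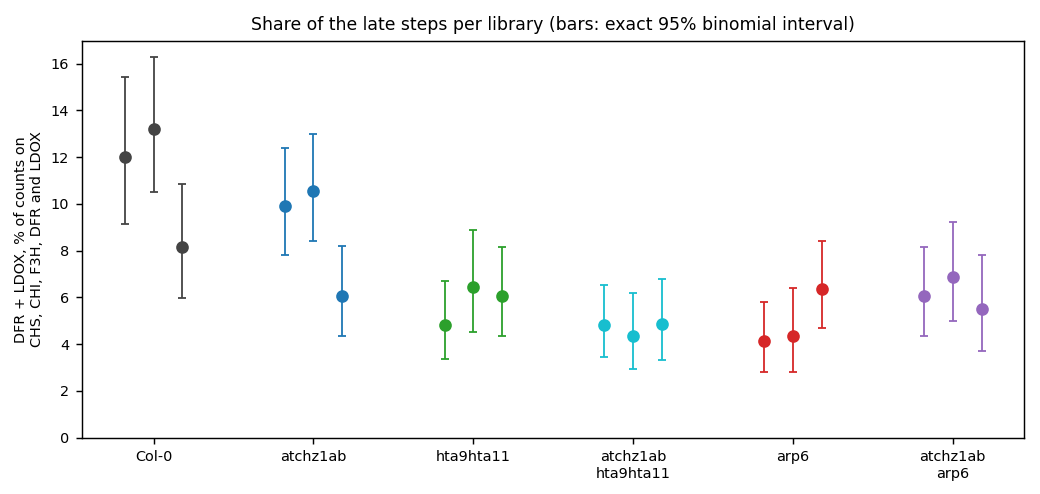
Share of DFR and LDOX in the counts on CHS, CHI, F3H, DFR and LDOX in each library, in percent, with the exact 95% binomial interval. The 3 Col-0 libraries sit between 8.16% and 13.2% and the 12 libraries with hta9hta11 or arp6 between 4.13% and 6.89%.

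Markers of organs differed between the same lines. The summed level of 5 leaf markers was 21878 to 22039 CPM in Col-0, 32097 to 32578 in arp6 and 27580 to 28264 in atchz1ab arp6, and all 5 rose in both arp6 lines, beside the rise of CHI and F3H. The sum of 5 flower markers was 3.12 to 5.35 CPM in Col-0, 30.3 to 33.1 in arp6 and 40.7 to 43.4 in atchz1ab arp6, and 2 of the 3 tested rose in both. In hta9hta11 2 of the 3 rose too, with a sum of 6.60 to 8.66 CPM. Of the root markers, 1 could be tested, and it fell in both arp6 lines (log2 fold changes -1.79 and -1.11). The sum of 5 seed markers was 10.3 to 13.9 CPM in Col-0, 48.1 to 53.6 in hta9hta11, where 3 of 5 rose, and 85.8 to 88.8 in atchz1ab hta9hta11, where 5 of 5 rose, beside the fall of LDOX. It was also higher in atchz1ab, at 26.3 to 29.2 CPM with 3 of 5 higher, where LDOX was not called, and in arp6, at 11.7 to 13.7 CPM, 3 of 5 rose and 1 fell. In atchz1ab arp6 the seed sum was 5.89 to 7.08 CPM, under that of Col-0, where 2 of 5 rose and 1 fell. Of the defining seed genes, CRB was at 0 in every group but atchz1ab hta9hta11, and SESA1 at 0 in Col-0 and atchz1ab. Of the 7 seed coat tannin genes, TT1 had 0 counts and BAN, TT12, TT10, TT2 and TT16 had 3, 1, 3, 2 and 1 in all 18 libraries together, which left AHA10 as the one tested. Over all genes, 24.2% rose and 25.5% fell in arp6, and 22.7% rose and 23.2% fell in atchz1ab arp6. In hta9hta11, atchz1ab hta9hta11 and atchz1ab, 5.98%, 6.19% and 6.15% of all genes rose. The part of these markers in the changes of the flavonoid genes was not tested.

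Around the 10 genes, 71 other genes of the pathway and its control were listed in 8 groups, of which 56 were tested. In arp6 20 of these 56 rose and 12 fell, beside 24.2% and 25.5% of all genes, and in atchz1ab arp6 17 rose and 14 fell, beside 22.7% and 23.2%, so that the falls are near or under the share of all genes. In atchz1ab 6 rose and 6 fell (all genes 6.15% and 5.55%), in hta9hta11 4 and 1 (5.98% and 5.26%) and in atchz1ab hta9hta11 3 and 5 (6.19% and 5.32%). The median log2 fold change of the 56 was 0.13 in arp6, 0.05 in atchz1ab arp6, 0.02 in hta9hta11, -0.0042 in atchz1ab and -0.0033 in atchz1ab hta9hta11, beside medians of all genes no farther from 0 than -0.02. Each arp6 change named for these genes held in each of the 13 or 14 alternatives that gave a value, unless its loss is given, and these alternatives were chosen after seeing the data.

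Of the 8 general phenylpropanoid genes, which supply the precursor, 5 rose in arp6 and 1 fell, where 24.2% of all genes rose and 25.5% fell. PAL2, a phenylalanine ammonia lyase, went from 59.3 ± 1.04 to 83.6 ± 2.08 CPM (0.49 ± 0.06, edgeR adjusted p = 2.18e-13), while C4H, the next enzyme, went from 96.8 ± 2.71 to 74.7 ± 2.53 (-0.37 ± 0.05, 5.85e-10). In atchz1ab 1 rose and 4 fell, where 6.15% and 5.55% of all genes did. PAL4 fell there from 15.4 ± 1.08 to 11.03 ± 1.21 CPM (-0.49 ± 0.13, edgeR adjusted p = 0.00389), which was not called without atchz1ab replicate 2 (-0.40, 0.0600) or with the assumed coefficient of variation of 0.1 (-0.49, 0.0681). The ligase gene 4CL3 rose from 11.06 ± 0.706 to 14.3 ± 0.995 (0.37 ± 0.13, edgeR adjusted p = 0.0430), a call that 8 of 14 alternatives ended, among them leaving out any of the 3 Col-0 libraries (0.32 to 0.41 on the log2 scale, 0.0617 to 0.165) and leaving out atchz1ab replicate 2 (0.36, 0.113) or replicate 3 (0.33, 0.158). PAL2 fell to 51.0 ± 2.16 CPM (-0.22 ± 0.06, edgeR adjusted p = 0.00706), which was not called when atchz1ab replicate 3 was left out (-0.18, 0.0619) or with that assumed coefficient (-0.22, 0.593). Of the 4 other core genes, CHIL, a helper of CHS without catalysis of its own, rose in arp6 from 11.8 ± 1.08 to 18.9 ± 3.17 CPM (0.68 ± 0.12, edgeR adjusted p = 1.31e-06) and stood at 18.9 ± 0.984 in atchz1ab arp6. The FLS1 relatives FLS2, FLS3 and FLS5 lie in a cluster on chromosome 5 between 25454578 and 25462568 and may share reads. FLS2 stood at 12, 11 and 12 counts in Col-0 and 1, 1 and 4 in arp6 (-2.42 ± 0.59, edgeR adjusted p = 0.000272), and FLS5 at 35, 45 and 29 against 11, 2 and 4 (-2.60 ± 0.36, 4.93e-10). With atchz1ab added to arp6, FLS2 was back at 7, 11 and 10 counts (2.28 ± 0.62 against arp6, edgeR adjusted p = 0.00389), and leaving out arp6 replicate 1 ended this call (1.87, 0.0523). So FLS1 rose in arp6 while its relatives FLS2 and FLS5 fell. The call of FLS1 held in 10 of 14 alternatives, and both relatives rest on few counts there.

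Of the 6 tested genes of flavonol decoration, 1 rose and 1 fell in arp6, no more than the share of all genes (24.2% and 25.5%). UGT78D1, a flavonol rhamnosyltransferase, went from 47.2 ± 2.04 to 62.0 ± 5.35 CPM (0.40 ± 0.07, edgeR adjusted p = 9.92e-08). UGT73C6, a flavonol glucosyltransferase, went from 28.6 ± 3.12 to 2.99 ± 0.919 CPM (-3.20 ± 0.14, edgeR adjusted p = 6.7e-43) and stood at 42.5 ± 0.622 in atchz1ab. The non-coding gene AT2G36792 on the other strand covers all 1677 exon bases of UGT73C6 and holds 1058 counts against 3643. Without strand, UGT73C6 would hold no more counts than that gene. These counts are thus those of a count by strand, given these gene models, though that setting is not stated. Of the 6 tested late anthocyanin genes, 1 rose and 1 fell in arp6, again no more than that share. SAT, an anthocyanin sinapoyltransferase, rose from 14.4 ± 1.37 to 29.5 ± 0.542 CPM (1.03 ± 0.10, edgeR adjusted p = 2.32e-16), and BGLU10, an anthocyanin glucosyltransferase, fell from 100.2 ± 3.46 to 75.0 ± 3.27 (-0.42 ± 0.06, 1.15e-10). In atchz1ab hta9hta11, the line where LDOX was lowest, 4 of the 6 fell, beside 5.32% of all genes. TT19, a glutathione transferase that carries anthocyanins, went there from 3.22 ± 0.379 to 1.33 ± 0.391 CPM (-1.25 ± 0.33, edgeR adjusted p = 0.00420). UGT79B1, an anthocyanin xylosyltransferase, had 8, 21 and 11 counts in Col-0 and 2, 6 and 2 there (-2.12 ± 0.56, edgeR adjusted p = 0.00410), a call lost without Col-0 replicate 2 (-1.73, 0.0917) or atchz1ab hta9hta11 replicate 1 (-1.77, 0.0567). A malonyltransferase gene, 5MAT, went from 1.15 ± 0.406 to 0.349 ± 0.176 CPM (-1.68 ± 0.56, edgeR adjusted p = 0.0326). That call was lost without Col-0 replicate 1 (-1.37, 0.199) or 3 (-1.76, 0.0515), without atchz1ab hta9hta11 replicate 1 (-1.51, 0.136) or 3 (-1.48, 0.127) and with DESeq2 (-1.72, adjusted p = 0.0675). The fall of BGLU10 there (-0.19 ± 0.05, edgeR adjusted p = 0.00962) held in 10 of 14 alternatives.

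Of the 8 other activators 2 could be tested, and both rose in arp6, where 24.2% of all genes rose. EGL3, a bHLH partner of MYB75, rose from 4.08 ± 0.286 to 7.53 ± 1.33 CPM (0.86 ± 0.21, edgeR adjusted p = 0.000234), and the WD40 partner TTG1 from 38.6 ± 0.420 to 45.8 ± 1.70 (0.25 ± 0.08, 0.00333), a call lost with library totals (0.13, 0.133) and with the assumed coefficient of variation of 0.1 (0.25, 0.140). The bHLH genes TT8 and GL3 had 52 and 85 counts in all libraries together and MYB11 70, too few to test. Of the 15 repressors 6 rose and 4 fell in arp6, beside 24.2% and 25.5% of all genes. KFB1, an F-box protein that marks phenylalanine ammonia lyase for decay, fell from 7.15 ± 0.669 to 3.25 ± 0.487 CPM (-1.13 ± 0.21, edgeR adjusted p = 2.35e-06), and SPL9, which hinders the MYB75 complex, rose from 13.7 ± 1.38 to 19.8 ± 2.60 (0.52 ± 0.12, 9.02e-05). KFB39, of the same kind, fell from 13.5 ± 0.470 to 7.70 ± 0.222 CPM (-0.80 ± 0.15, edgeR adjusted p = 1.80e-06), and its exons are wholly covered by AT2G44140 on the other strand, with 4358 counts against 1943. MYB7, a repressor, rose from 2.67 ± 1.37 to 4.56 ± 1.31 CPM (0.77 ± 0.27, edgeR adjusted p = 0.0143), but not by the threshold without Col-0 replicate 1 (0.61, 0.0899) or 2 (0.53, 0.149) or arp6 replicate 2 (0.57, 0.125). A pair chosen after its values were seen rose too: MYBL2, a repressor of DFR, from 45.4 ± 2.44 to 65.1 ± 0.538 CPM (0.52 ± 0.07, edgeR adjusted p = 1.28e-11), and KFBCHS, which marks CHS for decay, from 126.9 ± 3.53 to 160.2 ± 2.62 (0.34 ± 0.04, 2.7e-12). In hta9hta11 2 of the 15 repressors rose, beside 5.98% of all genes. Among them was KFB20, another F-box protein of this kind (52.5 ± 3.64 to 71.1 ± 2.75 CPM, 0.43 ± 0.06, edgeR adjusted p = 2.71e-09).

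Of the 14 genes of light and ultraviolet signalling, which feed into the pathway through HY5, 4 rose and 2 fell in arp6, near or under the share of all genes (24.2% and 25.5%). BBX24, which restrains HY5, had 113.3 ± 2.88 CPM in Col-0 and rose in each of the 5 lines, from 0.14 ± 0.04 in atchz1ab (edgeR adjusted p = 0.0197) to 0.67 ± 0.04 in arp6 (179.6 ± 2.34 CPM, 7.84e-31). The call in atchz1ab was lost without Col-0 replicate 2 (0.12, edgeR adjusted p = 0.124) or atchz1ab replicate 2 (0.12, 0.103) and with DESeq2 (0.14, adjusted p = 0.0512), and those in atchz1ab, hta9hta11 and atchz1ab hta9hta11 with the assumed coefficient of variation of 0.1 (edgeR adjusted p = 0.841, 0.761 and 0.315). Its relative BBX25 rose in arp6 from 8.37 ± 0.701 to 12.98 ± 2.21 CPM (0.62 ± 0.15, edgeR adjusted p = 0.000280). HY5, a bZIP activator of CHS, rose in atchz1ab from 12.7 ± 1.09 to 17.3 ± 2.56 CPM (0.44 ± 0.12, edgeR adjusted p = 0.00742) and was lower in atchz1ab arp6, at 9.83 ± 1.53 (-0.38 ± 0.14, 0.0231). The rise of HY5 was lost without Col-0 replicate 1 (0.38, edgeR adjusted p = 0.0634) or atchz1ab replicate 1 (0.38, 0.0711) or 3 (0.38, 0.0676) and with the assumed coefficient of 0.1 (0.44, 0.108). The fall of HY5 in atchz1ab arp6 was lost without Col-0 replicate 2 (-0.36, 0.0640) or 3 (-0.33, 0.0851) or atchz1ab arp6 replicate 1 (-0.25, 0.203), with DESeq2 (-0.37, adjusted p = 0.0564) and with that assumed coefficient (-0.38, 0.0856). HYH, the close relative of HY5, fell in atchz1ab arp6 from 8.69 ± 0.729 to 5.45 ± 0.547 CPM (-0.67 ± 0.18, edgeR adjusted p = 0.00114).

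**Figure D5:**
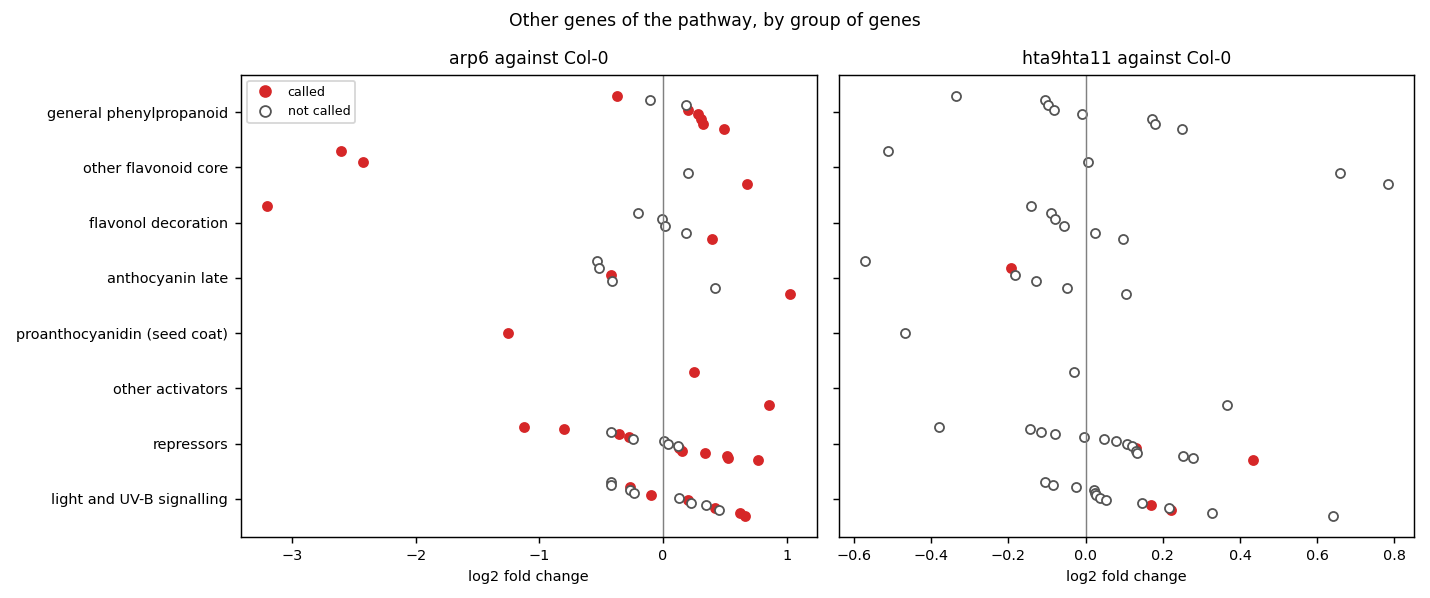
Log2 fold change of the 56 other tested genes of the pathway, by group of genes, in arp6 and in hta9hta11 against Col-0 (red points are calls at an adjusted p under 0.05, open points are not called, and the horizontal scales differ). In arp6 20 lie among the higher calls and 12 among the lower, with UGT73C6 at -3.20, and in hta9hta11 4 and 1.

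Likeness of pattern was measured as the root mean square difference between the 6 genotype means of log2 CPM, each gene centred on its own mean, over 18333 genes with at least 1 CPM on average. Among the 9 tested genes themselves, CHI and F3H were the closest pair (0.13) and F3H and MYB75 the farthest (0.78), while DFR stood nearer to MYB75 (0.27) than to CHI (0.50) or F3H (0.59). MYB111 stood nearer to CHS (0.14) than to FLS1 (0.26). The genes most like CHS were TSK (AT3G18730, 0.041), AT5G16720 (0.042) and SEN2 (AT5G60230, 0.044), and those most like FLS1 were AT1G10780 (0.040), FKBP13 (AT5G45680, 0.054) and RGF9 (AT5G64770, 0.057). DFR was most like AT2G31440 (0.057), AT5G20030 (0.058) and PRXCA (AT3G49110, 0.073). The nearest to MYB111 was AT3G60680 (0.051), followed by AT5G23680 and AT3G19680, and the nearest to MYB75 was AT5G19240 (0.13), followed by AT3G25597 and AT5G09240. With 6 genotype means from shared libraries, this is a description.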

How the data were processed

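The authors deposited a table of raw counts per gene for 18 libraries of a stranded mRNA kit, and each of its 18 sample columns was matched to a sample by its title. Per the submitters' processing notes, cutadapt, HISAT2, SAMtools, featureCounts and the genome TAIR10 were used; the sources used here do not state their versions, the annotation release, the strand setting or the treatment of reads that match several genes. Genes were tested with edgeR 4.0.16 in R 4.3.3 (TMM scaling, filterByExpr, quasi-likelihood test, genotype as the only term, 12 residual degrees of freedom), with Benjamini-Hochberg adjustment over 18906 genes. SE is the log2 fold change divided by the square root of F, and 95% intervals use 12 degrees of freedom. The quasi-likelihood test adds degrees of freedom drawn from all genes, so that these intervals are wider than its p-values imply. For FLS1 in atchz1ab the interval held 0 at an unadjusted p of 0.0382 in edgeR's test. All 3 libraries of a genotype entered the fit. Their counts differed by more than sampling noise (chi-square per degree of freedom 1.43 to 1.69 between replicates), so that none was counted as a repeat of another. The main test was tried on simulated counts with known changes, for arp6 against Col-0 alone. Those changes were given to genes with higher counts than MYB12 and MYB75 had, so that the trial does not cover these genes. The alternatives were RLE, upper quartile and no scaling, no filter on low counts, DESeq2 1.42.0, a replicate block, an assumed coefficient of variation of 0.1, a fit of the genotypes compared alone, and leaving out each library. Exon lengths, positions and upstream sequences came from RefSeq TAIR10.1, in which 32835 of the 33602 gene identifiers were found. Gene identifiers chose the 10 genes. From the other lists, the genes named come from the up to 4 called ones per list and comparison with the largest absolute log2 fold change, not all of which are printed, and exceptions are marked where they stand. The 3 genes most alike in pattern were named too. The genes and lists were chosen with earlier results of these data known.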

Additional observations from a re-analysis of the deposited data

Results flagged for a closer look

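Genes are given here where the change on adding atchz1ab differed between the Col-0 background and a mutant background, by edgeR's test of that difference itself on the log2 scale. Among the 10 flavonoid genes the difference was -0.46 for CHS with hta9hta11, -0.43 for CHS with arp6 and -0.50 for CHI with arp6 (edgeR adjusted p = 0.00130, 0.00274 and 0.0271). The interactions with hta9hta11 and with arp6 share the Col-0 and atchz1ab libraries.

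Among the other pathway genes, the difference with hta9hta11 was 0.58 for PAL4, -0.42 for UGT89C1, -0.53 for UGT73C6, 0.42 for OMT1, 0.32 for BGLU10 and -0.25 for KFB20 (edgeR adjusted p = 0.0300, 0.0210, 0.00132, 2.77e-06, 0.00211 and 0.0421). The difference with arp6 was -0.58 for PAL3, 0.23 for C4H, 2.41 for FLS2, 1.83 for FLS5 and 0.36 for BGLU10 (edgeR adjusted p = 0.00174, 0.0238, 0.0168, 0.00727 and 0.000412). It was -0.24 for LBD37, -0.25 for KFB20, -0.31 for KFBCHS, -0.58 for HY5 and -0.29 for BBX24 (edgeR adjusted p = 0.0151, 0.0434, 1.82e-05, 0.0276 and 3.40e-05). Of 20 alternatives each, 12 ended the call of KFB20 with hta9hta11 and 12 that with arp6, 9 that of PAL4, 8 that of HY5, 7 that of UGT89C1, 7 that of C4H and 3 that of LBD37. For BGLU10 it was 3 with hta9hta11 and 2 with arp6, and for UGT73C6, OMT1, PAL3, FLS2, FLS5, KFBCHS and BBX24 it was 1 each. For FLS2 it was leaving out arp6 replicate 1 (2.00, edgeR adjusted p = 0.0907) and for FLS5 atchz1ab arp6 replicate 1 (1.57, 0.0633). UGT73C6 and UGT89C1 overlap genes on the other strand, and FLS2 and FLS5 are neighbours of similar sequence.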

How the results depend on the processing

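Of 1363 recomputed values of the tested flavonoid genes and their comparisons, 1303 kept their side of the threshold, 42 lost a call, 18 gained one and 0 called values reversed, while 70 uncalled values changed sign. With the assumed coefficient of variation of 0.1 in place of the estimated spread (common value 3.08%), the flavonoid genes called numbered 1 in atchz1ab, 1 in hta9hta11, 1 in atchz1ab hta9hta11, 1 between arp6 and hta9hta11, and 0 and 0 in the interactions with hta9hta11 and arp6, against 2, 3, 4, 2, 1 and 2. Over all genes it called 637 in atchz1ab, 640 in hta9hta11, 766 in atchz1ab hta9hta11, 5566 in atchz1ab arp6, 119 in atchz1ab hta9hta11 against hta9hta11, 839 in atchz1ab arp6 against arp6, 5277 between arp6 and hta9hta11, and 276 and 693 in the interactions, against 2211, 2124, 2177, 8675, 330, 2768, 8449, 1352 and 2597. DESeq2 called 1 flavonoid gene in atchz1ab and 1 in the interaction with arp6, and 197 genes in atchz1ab hta9hta11 against hta9hta11. Library totals left 1 in the interaction with arp6, and moved the median of all genes to -0.13 in arp6 against Col-0 and -0.12 against hta9hta11. Leaving out each library gave 1 to 2 called flavonoid genes in atchz1ab, 1 to 3 in hta9hta11, 3 to 7 in arp6 (3 without arp6 replicate 2), 2 to 5 in atchz1ab hta9hta11 (2 without Col-0 replicate 1), 0 to 1 in atchz1ab arp6 against arp6 and 1 to 3 in the interaction with arp6. It gave 219 to 249 called genes over all in atchz1ab hta9hta11 against hta9hta11. The replicate numbers do not pair the libraries (correlations of deviations between same-numbered libraries -0.05 to 0.06), and with the replicate block 90 of 90 values of the flavonoid genes kept their direction and side of the threshold. Of 2162 recomputed values of the called other pathway genes, chosen after seeing the data, 1836 kept the call, 326 lost it and 0 reversed. The cause of these changes was not tested. Low counts limit MYB12, MYB75, DFR and LDOX.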
